A study of Mus musculus with 22 samples.

Results

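The genes described here move calcium through the heart muscle cell with each beat. They were chosen by name as Ryr2, Casq2, Trdn, Jph2, Atp2a2, Pln, Hrc, Srl, Cacna1c and Slc8a1, 10 genes in all, and an array probe was assigned to one of them when its accession belonged to that gene in RefSeq. This gave 12 probes for 8 of the 10 genes, all 8 of which were tested among 15503 genes. Trdn and Cacna1c were matched by no probe and were not analysed here. Hearts came from 22 female C57BL/6 mice, 5 to 7 weeks old at purchase and acclimatised for 1 to 3 weeks, each given a single instillation of 40 µl into the trachea under anaesthesia. The nano-TiO2 mice received 162 µg of nanosized titanium dioxide suspended in the vehicle, which was saline with 10% cell-free lavage fluid from the lungs of untreated mice, and the controls received the vehicle alone. The 4 groups were control day 1 (5 mice), nano-TiO2 day 1 (5 mice), control day 28 (6 mice) and nano-TiO2 day 28 (6 mice), counted from the instillation, and every mouse, controls included, carried the instillation, the anaesthesia and the lavage fluid. Each mouse was hybridised on 1 Agilent 2-colour array, its heart RNA in Cy5 against a common reference of pooled mouse cell line RNA in Cy3.

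Contraction starts when the voltage-gated calcium channel of the surface membrane, whose pore is encoded by Cacna1c, lets in a little calcium that opens the ryanodine receptor Ryr2 in the sarcoplasmic reticulum. Junctophilin 2 (Jph2) holds the surface membrane close to the reticulum, and calsequestrin 2 (Casq2) and triadin (Trdn) sit with the release channel on the luminal side, where calsequestrin stores calcium. Relaxation follows when the pump SERCA2, encoded by Atp2a2, takes calcium back up and the sodium-calcium exchanger encoded by Slc8a1 exports the rest. Phospholamban (Pln) is a small membrane protein that inhibits the pump until protein kinase A or calmodulin-dependent kinase phosphorylates it, the histidine-rich calcium binding protein (Hrc) binds calcium in the lumen, and sarcalumenin (Srl) is a luminal glycoprotein that binds calcium and interacts with the pump.

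Pln is one of the 2 members that differed between groups past the threshold below, and the promoter of the other, Srl, is not printed. The sequence upstream of the Pln start, at chr10:53337436-53337685 on the plus strand of GRCm38.p6 (RefSeq), is shown with the GATA letters (GATAA, on either strand) and a TATAAA in capitals.
Pln: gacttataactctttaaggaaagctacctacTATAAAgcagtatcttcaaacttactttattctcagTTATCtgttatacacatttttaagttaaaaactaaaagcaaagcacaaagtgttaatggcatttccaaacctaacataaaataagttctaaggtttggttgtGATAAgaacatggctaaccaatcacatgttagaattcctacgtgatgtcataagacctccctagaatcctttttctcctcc
These 250 bases hold GATAA 2 times, at position -183 from the start on the minus strand and at -81 on the plus strand, and TATAAA at position -219. In windows of the same length, 22.6% of the 32851 RefSeq promoters held GATAA and 12.4% held TATAAA on at least one strand. Among the 7 members with a promoter in the table, GATAA also stood in those of Slc8a1 and Hrc. These are matches of letters only, and no binding was measured.

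The heart channel rose well above background at 32.7% to 52.8% of an array's probes, no spot was saturated, and the number of arrays limits the precision. All 10 cardiomyocyte markers were well above background on all 22 arrays, while the lung genes Sftpb, Sftpc and Foxj1 were above background on none, Sftpa1 and Sftpd on 2 arrays each, Scgb1a1 on 6 and Scgb3a1 on 21. The protocol for RNA extraction names left lungs, although the tissue is labelled heart. The hearts had been cut into small pieces, and some arrays stood apart. The atrial peptide gene Sln was not above background on 3 arrays, namely mouse 2 of control day 1, mouse 1 of nano-TiO2 day 1 and mouse 1 of nano-TiO2 day 28. On 4 arrays the mean of the liver or lung epithelium markers lay more than 2 log2 units above the median array, namely mice 1, 4 and 5 of control day 28 and mouse 2 of nano-TiO2 day 1. Results for the differences of the members and of the further calcium pathway genes between the controls are given with and without these arrays. The marker differences and the correlations are given only with all arrays.

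All levels below are log2 ratios of heart over reference, so that 0 is the level of the reference pool. The levels are averages over the 22 mice with their SD. Ryr2 (chr13:11553099-12106945, GRCm38.p6) had a mean log2 ratio of 0.88 ± 0.29 (SD, n = 22), Casq2 (chr3:102086415-102146514) of 4.56 ± 0.19, and Jph2 (chr2:163336242-163398049) of 1.36 ± 0.33. The Ryr2 and Jph2 probes were dim, with mean heart intensities of 96.4 and 134 units after an offset of 50, so their ratios are compressed towards 0. With plain background subtraction and with the scanner's log ratio the levels were 4.47 and 4.94 for Ryr2, 3.63 and 3.61 for Jph2, 4.56 and 5.02 for Slc8a1 and 10.2 and 10.4 for Pln. They were 5.49 and 5.33 for Casq2, 6.50 and 6.68 for Hrc and 6.55 and 6.43 for Srl. Median centring in place of loess gave 0.995 for Jph2, 3.46 for Casq2, 5.61 for Atp2a2, 5.80 for Pln, 4.90 for Hrc and 4.50 for Srl. The levels of these genes thus depend on the handling of background, on the normalization or on both. Ryr2 was well above background on 21 of the 22 arrays in the heart channel and on 0 in the reference channel.

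Among the genes of calcium uptake, the mean log2 ratio was 6.84 ± 0.25 for Atp2a2 (chr5:122453513-122502225), 6.89 ± 0.31 for Pln (chr10:53337686-53345999), 6.09 ± 0.35 for Hrc (chr7:45335269-45338973) and 5.64 ± 0.25 for Srl (chr16:4476979-4541908), SD over 22 mice in each case. These 4 genes were well above background in heart RNA on all 22 arrays. In the reference, Pln was above background on 2 of 22 arrays, so its ratio to the reference is set against a reference near background. The second Atp2a2 probe, above background in both channels on all 22 arrays, had a mean log2 ratio of 3.88 ± 0.17 (SD), well under that of the first. Slc8a1 (chr17:81373105-81738387) had a mean log2 ratio of 1.26 ± 0.38 by its brightest probe, with a mean heart intensity of 121 units and no reference signal above background. Of its other probes, one was above background on all 22 arrays (0.96 ± 0.18), one on 6 arrays (0.36 ± 0.17) and one on 0 arrays (0.09 ± 0.12). A ratio of heart to a cell line pool measures RNA per unit of total RNA, and fewer cells of a type and less RNA per cell cannot be told apart in it.

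**Figure D1:**
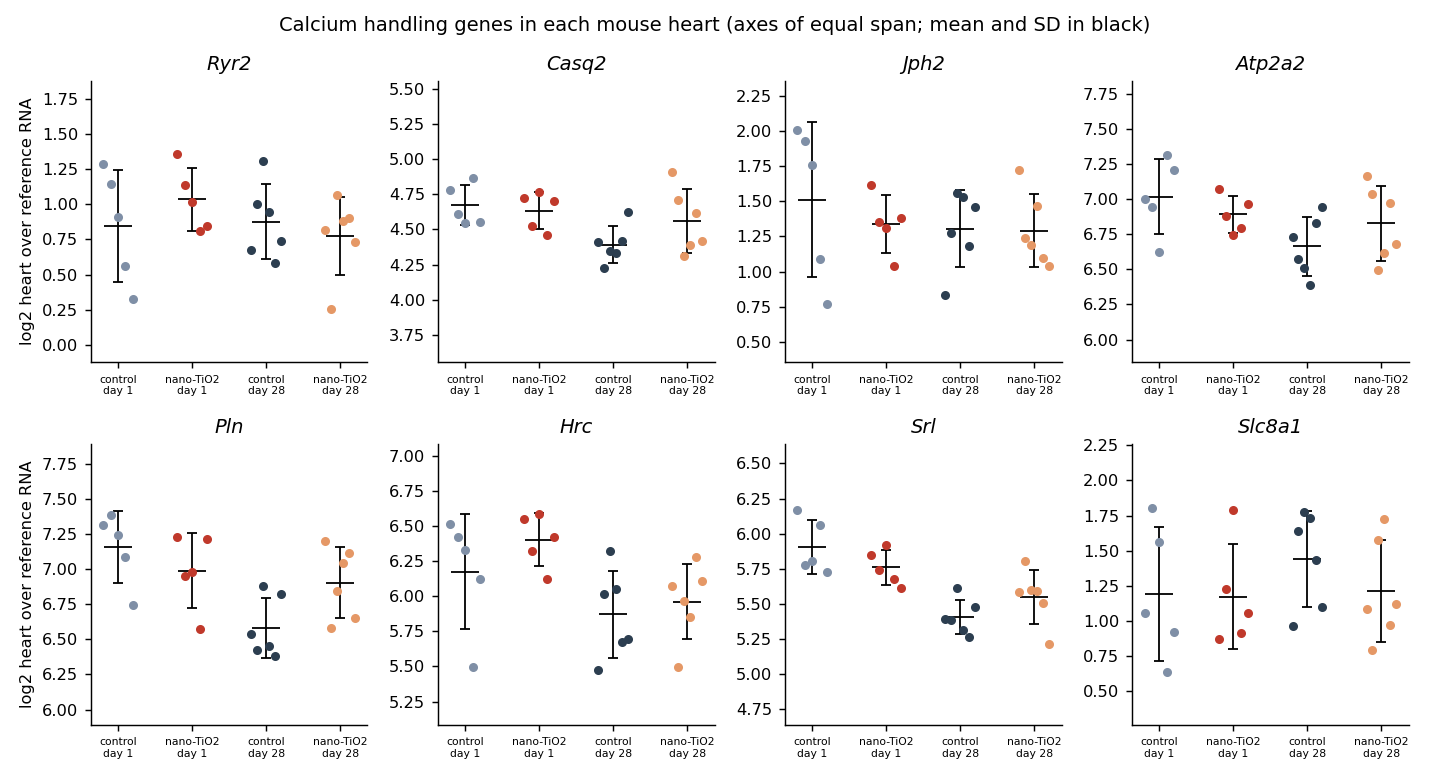
Log2 ratio of heart over reference RNA for the 8 measured genes, one point per mouse in the 4 groups (5, 5, 6 and 6 mice), with the mean and SD in black and every panel spanning the same number of log2 units. The day 28 controls have the lowest mean of the 4 groups in Pln and Srl, and also in Casq2, Atp2a2 and Hrc. Srl shows no overlap between the control groups. Slc8a1 spreads widely in every group, with SDs from 0.34 to 0.48, and Jph2 does so in the day 1 controls (SD 0.55).

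In the controls, hearts taken at day 28 had less Pln and less Srl RNA than hearts taken at day 1, and these were the only members past the threshold (adjusted p under 0.05 in limma, Benjamini-Hochberg over 15503 genes). Pln was 1.49-fold lower and Srl 1.41-fold lower. The comparison sets mice killed 28 days after a vehicle instillation against mice killed 1 day after it, so that time since the instillation and age differ together. Of all genes, 10.5% passed in either direction, 3.44% were lower and 7.02% were higher, against 2 of 8 members lower and 0 higher.

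Pln, the inhibitor of the pump, had log2 ratios of 7.32, 7.39, 7.24, 7.09 and 6.75 in the 5 day 1 controls. In the 6 day 28 controls its log2 ratios ran from 6.38 to 6.88 with a median of 6.50. The day 1 controls were higher, except that the lowest of them fell within the range of the day 28 controls. The log2 difference was -0.57 ± 0.14 (SE, 95% interval -0.87 to -0.28, adjusted p = 0.0130).

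Srl, the luminal partner of the pump, had log2 ratios of 6.17, 5.78, 5.81, 6.06 and 5.73 in the 5 day 1 controls. In the 6 day 28 controls its log2 ratios ran from 5.27 to 5.61 with a median of 5.39. Every day 28 control was below every day 1 control, which held for 2.35% of all genes in this direction. The log2 difference was -0.50 ± 0.10 (SE, 95% interval -0.70 to -0.30, adjusted p = 0.00453).

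Neither call rested on a single array: with each array left out in turn, the Pln difference ran from -0.68 to -0.52 and the Srl difference from -0.55 to -0.44, and both remained past the threshold in all 22 fits. Within the 3 scan days, the Pln difference between the controls was -0.58, -0.87 and -0.32 and the Srl difference -0.35, -0.58 and -0.52. On the 3 slides that held a control of each day it was -0.37, -0.37 and -0.85 for Pln and -0.46, -0.20 and -0.38 for Srl. With the slide as a block in the fit, the differences were -0.51 and -0.40 with adjusted p of 0.139 and 0.102, and 0 of 15503 genes passed. Without the 4 arrays that held liver or lung transcripts the differences were -0.45 and -0.42 with adjusted p of 0.240 and 0.125, and 7 genes in all passed. Without the 3 arrays lacking Sln both passed, at -0.52 (adjusted p = 0.0328) and -0.53 (adjusted p = 0.00636). That fit did not even out atrial RNA between the controls. The mean of the atrial markers, relative to all mice, ran from -2.03 to -0.05 in the remaining day 1 controls. In the day 28 controls it ran from 0.57 to 1.25. Median centring in place of loess (-0.31 and -0.24) and normexp fitted on all spots (-0.62 and -0.53) also left both short of the threshold, and plain background subtraction left Pln short of it (-0.96, adjusted p = 0.0981).

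Of the other members, Atp2a2, which encodes the pump itself, had log2 ratios of 7.00, 6.94, 6.62, 7.31 and 7.21 in the day 1 controls. In the day 28 controls they ran from 6.39 to 6.95 with a median of 6.65. The groups overlapped, and the difference of -0.36 ± 0.13 (SE) missed the threshold (adjusted p = 0.0864). The second Atp2a2 probe gave -0.32 ± 0.09 (SE) and passed when it stood for the gene (adjusted p = 0.0242). Atp2a2 also passed with the scan day as a block (-0.31, adjusted p = 0.0374), with the mean of its probes (-0.34, adjusted p = 0.0287) and with the scanner's log ratio (-0.40, adjusted p = 0.0186), while in the heart channel alone the difference was -0.0375 (adjusted p = 0.886).

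Casq2, the luminal calcium store, had log2 ratios of 4.78, 4.61, 4.55, 4.87 and 4.55 in the day 1 controls and from 4.22 to 4.63 with a median of 4.38 in the day 28 controls. The ranges overlapped through the highest of the day 28 controls, and the difference of -0.28 ± 0.10 (SE) missed the threshold (adjusted p = 0.0774). Without that mouse, number 6 of control day 28, both Casq2 (adjusted p = 0.0362) and Atp2a2 (adjusted p = 0.0445) passed, which made 4 members. Hrc differed by -0.30 ± 0.17 (SE, adjusted p = 0.278) and Jph2 by -0.21 ± 0.19 (SE, adjusted p = 0.545). Ryr2, at 0.03 ± 0.17, and Slc8a1, at 0.25 ± 0.22, were the 2 members with a difference above 0, and neither passed (adjusted p = 0.941 and 0.523). At an unadjusted p under 0.05, 4 of the 8 members were lower, against 10.4% of all genes, and the median difference of the 8 was -0.29 against -0.0024 for all genes tested.

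The RNA of other cell types moved with this comparison. The 10 cardiomyocyte markers were all lower at day 28 in the controls, 5 of them past the threshold, with a mean difference of -0.38, and the 6 ventricular markers were all lower, 2 past the threshold. Per mouse the mean of the cardiomyocyte markers, relative to all mice, ran from -0.02 to 0.30 in the day 1 controls and from -0.38 to 0.01 in the day 28 controls. All 8 atrial markers were higher at day 28 (4 past the threshold, mean difference 2.14), as were all 8 tested adipocyte markers (6 past the threshold, mean 3.44), 5 of 6 smooth muscle markers, all past the threshold, all 7 fibroblast markers (1 past the threshold) and all 5 macrophage markers (3 past the threshold). The 5 liver and 2 lung epithelium markers tested were also all higher, none past the threshold, with mean differences of 1.05 and 1.32. These rested on few mice. The lung mean, relative to all mice, was 3.81 and 3.71 in mice 1 and 5 of control day 28. In the other day 28 controls it ran from -0.52 to -0.34, within the day 1 range of -0.63 to -0.04. The liver mean was 2.99 and 3.44 in mice 1 and 4. In mice 2 and 6 it was -0.82 and -1.05, below every day 1 control. The adipocyte gene Lep was above background on 0 arrays. Their part in the Pln and Srl differences was not tested, but the size relative to cardiomyocyte RNA was measured. The mean of the cardiomyocyte markers per mouse, over those with a value on the array, differed by -0.40 between the controls. Relative to this mean in the same mouse, Pln differed by -0.18 ± 0.13 (SE) and Srl by -0.11 ± 0.13 (SE). On this scale Atp2a2 differed by 0.04 ± 0.12, Hrc by 0.09 ± 0.17, Casq2 by 0.12 ± 0.10, Jph2 by 0.19 ± 0.18, Ryr2 by 0.43 ± 0.18 and Slc8a1 by 0.64 ± 0.24 (SE).

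**Figure D2:**
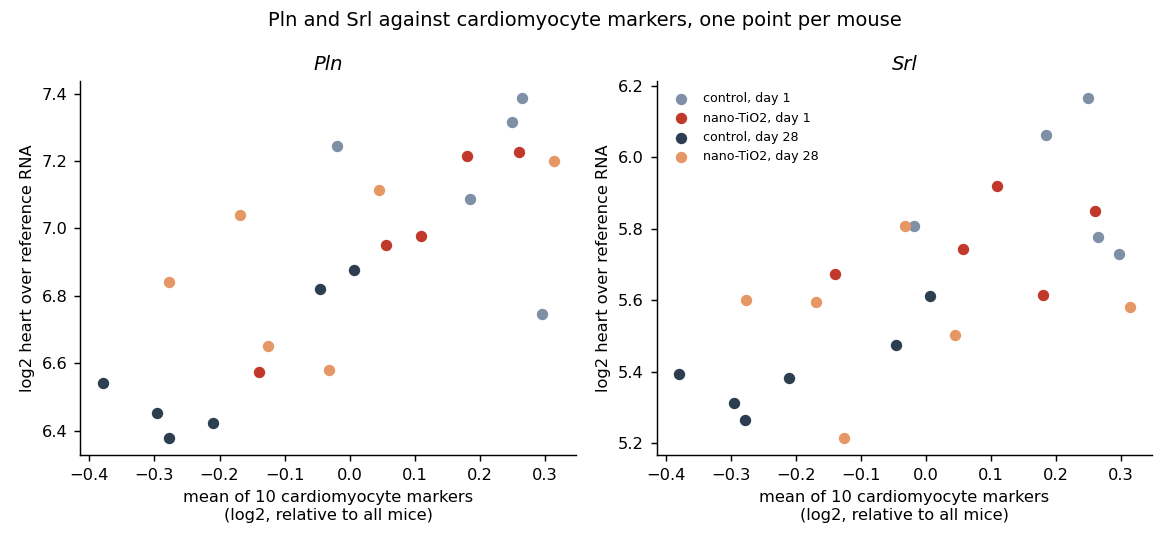
Log2 ratio of heart over reference for Pln (left) and Srl (right) against the mean of 10 cardiomyocyte markers in the same heart, one point per mouse, coloured by group. The day 28 controls lie between -0.38 and 0.01 on the marker axis and the day 1 controls between -0.02 and 0.30, and every day 28 control is below every day 1 control in Srl.

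Nano-TiO2 at day 1 gave no member past the threshold, and 0% of all 15503 genes passed. At an unadjusted p under 0.05 there were 0 of 8 members, against 8.64% of all genes. Hrc had the highest difference, with log2 ratios of 6.55, 6.32, 6.59, 6.12 and 6.42 in the nano-TiO2 mice and 6.52, 6.42, 6.33, 5.49 and 6.12 in the controls. The groups overlapped and the difference was 0.23 ± 0.18 (SE, 95% interval -0.14 to 0.59, adjusted p = 0.715). Jph2 had the lowest, at -0.17 ± 0.20 (SE, 95% interval -0.58 to 0.24, adjusted p = 0.816). The intervals of Casq2 (-0.26 to 0.18) and Srl (-0.36 to 0.07) were the narrowest among the members, and that of Slc8a1 the widest (-0.49 to 0.44).

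Nano-TiO2 at day 28 likewise gave no member past the threshold among the 8, with 0% of all genes called. Pln was the member with the highest difference. Its log2 ratios ran from 6.58 to 7.20 with a median of 6.94 in the nano-TiO2 mice, against 6.38 to 6.88 with a median of 6.50 in the controls. The ranges overlapped, and the difference was 0.32 ± 0.13 (SE, 95% interval 0.04 to 0.60, adjusted p = 0.637). It was the 1 member of 8 higher at an unadjusted p under 0.05, against 2.22% of all genes. Within the 3 scan days the Pln difference was 0.28, 0.41 and 0.28, and on the 6 slides that held a mouse of each group it ran from -0.17 to 0.74. The 10 cardiomyocyte markers were all higher in the nano-TiO2 mice, none past the threshold, with a mean difference of 0.14. Their mean per mouse, over the markers with a value on the array, differed by 0.16. Relative to that mean Pln differed by 0.16 ± 0.12 (SE).

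Casq2 differed by 0.17 ± 0.10 at day 28, Atp2a2 by 0.17 ± 0.13, Srl by 0.14 ± 0.09, Hrc by 0.09 ± 0.16, Jph2 by -0.01 ± 0.18, Ryr2 by -0.10 ± 0.16 and Slc8a1 by -0.23 ± 0.21 (SE), none at an unadjusted p under 0.05. The 95% intervals of Casq2 (-0.03 to 0.37) and Srl (-0.05 to 0.34) again were narrower than those of the dim probes, such as Slc8a1 (-0.65 to 0.20).

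The effects of nano-TiO2 at the 2 times were then compared with each other, and no member and 0% of all genes passed. Pln had the largest difference of effects, 0.49 ± 0.20 (SE, adjusted p = 0.252), and Atp2a2 and Srl followed at 0.29 ± 0.19 (SE, adjusted p = 0.486) and 0.29 ± 0.14 (SE, adjusted p = 0.335). Pln and Srl were the 2 of 8 members higher at an unadjusted p under 0.05, against 4.81% of all genes. In the same comparison all 10 cardiomyocyte markers were higher (mean 0.23) and all 8 atrial and 8 adipocyte markers lower (mean -2.20 and -3.71), none past the threshold, and their part in the result was not tested. For the mean of the cardiomyocyte markers per mouse the difference of effects was 0.26. Relative to that mean it was 0.23 ± 0.19 for Pln and 0.03 ± 0.18 for Srl (SE). In both genes the order of the group means was control day 1, nano-TiO2 day 1, nano-TiO2 day 28 and control day 28. For Pln these means were 7.16 ± 0.25, 6.99 ± 0.27, 6.90 ± 0.25 and 6.58 ± 0.21 (SD), and for Srl 5.91 ± 0.19, 5.76 ± 0.12, 5.55 ± 0.19 and 5.41 ± 0.12 (SD). The order was not particular to these genes. Atp2a2 (7.02, 6.89, 6.83 and 6.66) and Casq2 (4.67, 4.63, 4.56 and 4.39) had it too. So had the means of the cardiomyocyte markers (0.20, 0.09, -0.04 and -0.20) and ventricular markers (0.18, 0.09, -0.02 and -0.20), relative to all mice. Ryr2, Jph2, Hrc and Slc8a1 had other orders. Neighbours in this order overlapped in range for Pln and Srl, and none of the 3 steps between neighbours passed the threshold.

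Between day 28 and day 1 in the nano-TiO2 mice, no member and 0% of all genes passed. Hrc had the largest difference, with log2 ratios from 5.50 to 6.28 and a median of 6.02 at day 28, against 6.55, 6.32, 6.59, 6.12 and 6.42 at day 1. The ranges overlapped through 1 mouse of day 1, and the difference was -0.44 ± 0.17 (SE, adjusted p = 0.905). Srl differed by -0.21 ± 0.10 (SE, adjusted p = 0.905), and these 2 of 8 members were lower at an unadjusted p under 0.05, against 2.85% of all genes. Pln differed by -0.08 ± 0.14 (SE, 95% interval -0.38 to 0.21), beside -0.57 in the controls. The comparisons of time in control and in nano-TiO2 mice use different mice, and the test of their difference is the comparison of effects above, where Pln did not pass.

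**Figure D3:**
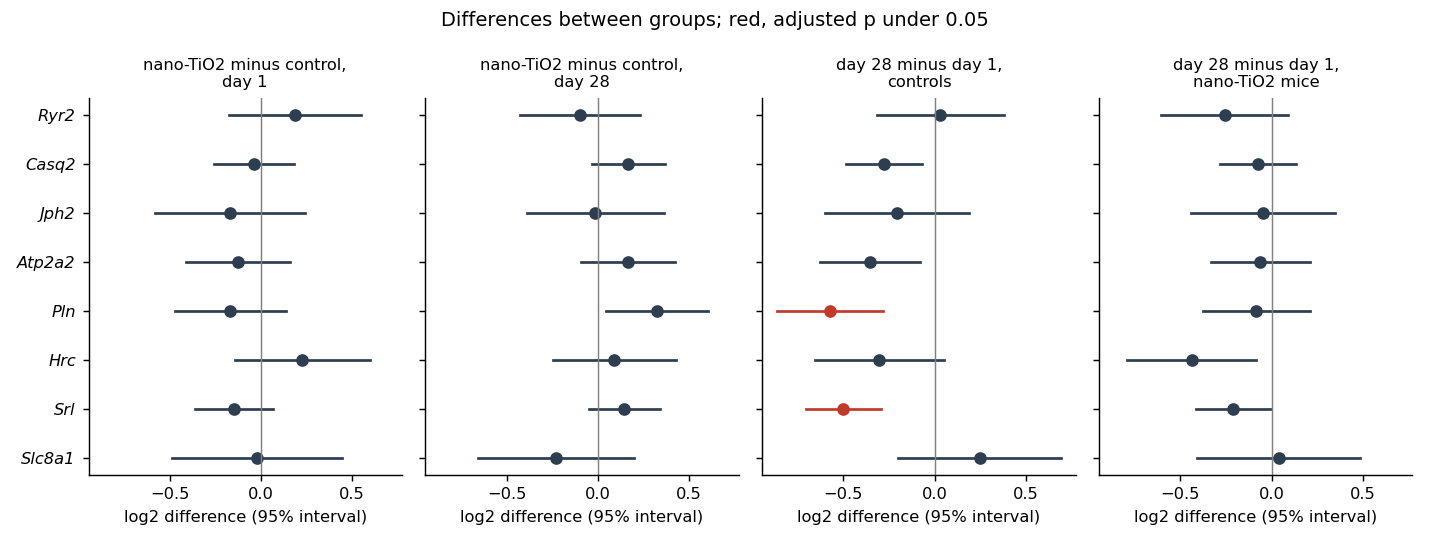
Log2 differences of the 8 genes in 4 comparisons, with points for the estimates and lines for 95% intervals from limma, and red for an adjusted p under 0.05. Pln and Srl in the controls are the 2 red points, at -0.57 and -0.50, and no interval in either nano-TiO2 panel carries an adjusted p under 0.05.

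The wider machinery was read from a list of 62 further genes, 59 of which had a probe and 49 of which were tested. In the controls, 4 were higher and 4 were lower at day 28 past the threshold, against the 7.02% and 3.44% of all genes given above, and the median difference of the 49 was -0.0372. Asph, whose locus encodes junctin and junctate beside aspartyl hydroxylase, fell by 0.74 on the log2 scale (SE 0.18, adjusted p = 0.0109). Its log2 ratios ran from 3.79 to 4.29 in the day 1 controls and from 2.64 to 3.77 in the day 28 controls, without overlap. The 2 dimmer Asph probes gave -0.08 and -0.01, so that the probes of this gene disagree. Tmem38a, which encodes the counter-ion channel TRIC-A of the reticulum, fell by 0.33 (SE 0.10, adjusted p = 0.0337), and its second probe gave -0.45. Cav3, the caveolin of muscle membranes, fell by 0.35 (SE 0.09, adjusted p = 0.0176), and Prkaca, a catalytic subunit of the kinase that phosphorylates phospholamban, fell by 0.39 (SE 0.10, adjusted p = 0.0143). In the same comparison the 10 cardiomyocyte markers had a mean difference of -0.38. The further pathway genes were not set relative to them.

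Another 4 genes rose, and 1 of them, Calm2, has the same role in the list as Prkaca, which fell. Calm2, one of the 3 calmodulin genes, rose by 0.56 on the log2 scale (SE 0.13, adjusted p = 0.00970), and its second probe gave 0.40. Ppp1r1a, an inhibitor of protein phosphatase 1, rose by 1.10 (SE 0.30, adjusted p = 0.0236). Cacna1h, a T-type calcium channel, rose by 1.06 (SE 0.30, adjusted p = 0.0284), but was above background on only 1 of the 5 day 1 control arrays, against all 6 at day 28. Itpr3, a receptor for inositol trisphosphate, rose by 0.47 (SE 0.14, adjusted p = 0.0358), with mean log2 ratios of -3.11 and -2.64, below the reference pool in both groups. By role, the release channel partners counted 3 of 8 lower, the sensors and kinases 1 of 10 higher and 1 lower, the entry channel subunits 1 of 7 higher, the pump regulators and luminal proteins 1 of 6 higher and the inositol trisphosphate receptors and store-operated entry 1 of 5 higher. None of these 8 passed with the slide as a block, with median centring, with normexp fitted on all spots or without the 4 arrays that held liver or lung transcripts, where their adjusted p ran from 0.0964 for Asph to 0.389 for Ppp1r1a. All 8 passed without the arrays lacking Sln, which left the day 1 controls below the day 28 controls in the mean of the atrial markers. With a single array left out between 4 and 8 of them passed, 4 without mouse 2 of control day 1 or mouse 5 of control day 28. None passed among the 4 beta-adrenergic receptors and cyclases, the 4 surface pumps, the 3 genes of mitochondrial calcium transport and the 2 skeletal muscle relatives.

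**Figure D4:**
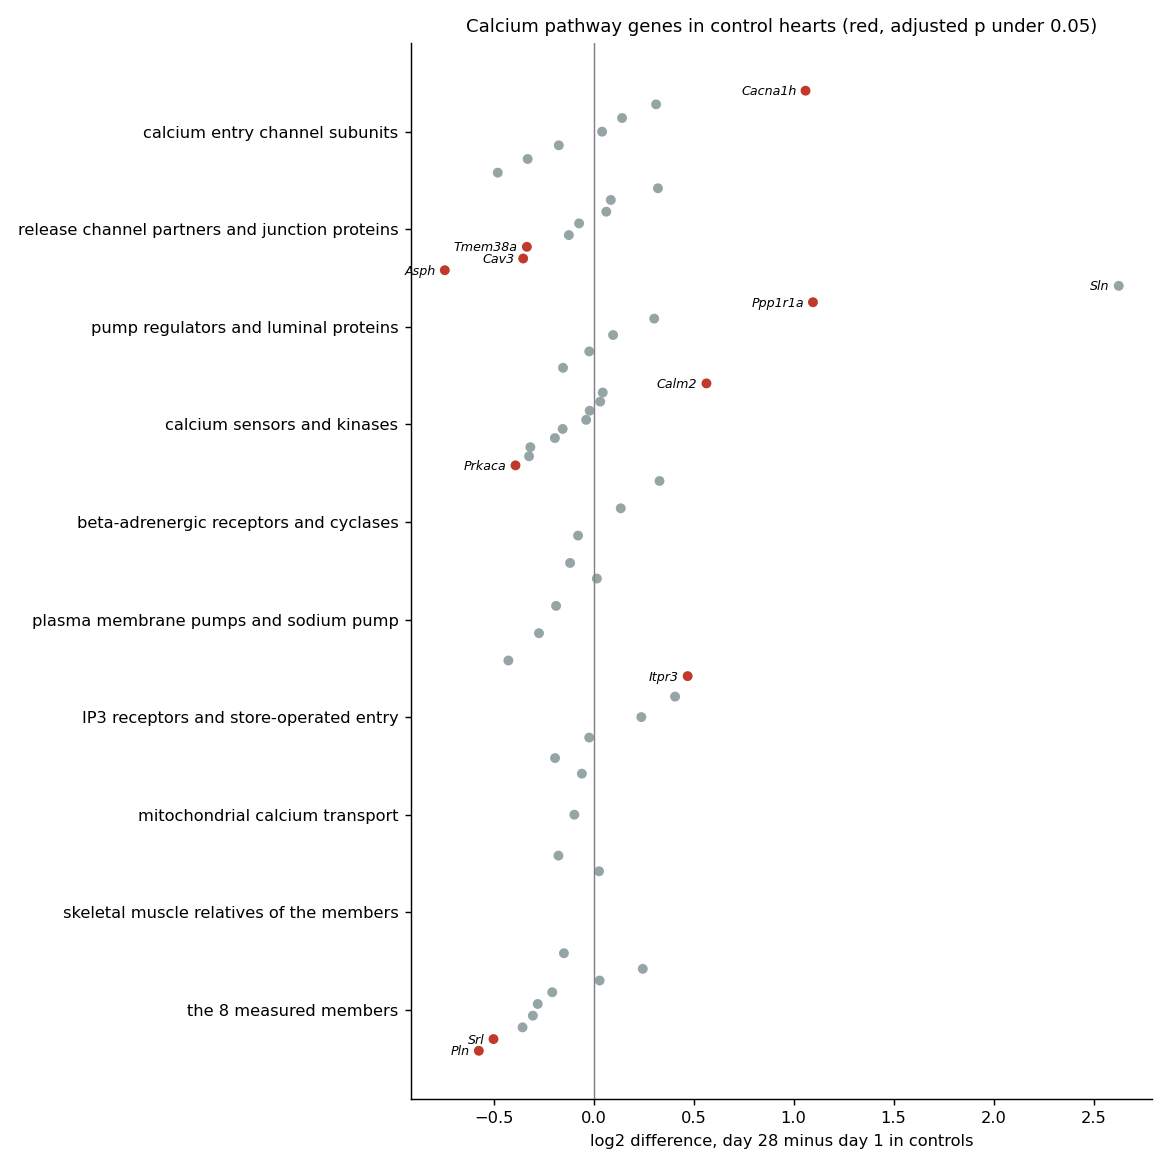
Log2 difference between day 28 and day 1 controls for the 49 further calcium pathway genes by role and for the 8 measured members, one point per gene, red for an adjusted p under 0.05. Asph, Cav3, Tmem38a and Prkaca lie below 0 with Pln and Srl, and Calm2, Ppp1r1a, Cacna1h and Itpr3 above it, while Sln, at 2.63, is not past the threshold.

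With nano-TiO2, none of the 49 genes passed at either time, and values are given for genes with a low p on either side of 0. At day 1 these were Calr, the calcium-binding chaperone calreticulin (0.27 ± 0.10, adjusted p = 0.499), and Stim1, the sensor of store depletion (0.24 ± 0.11, adjusted p = 0.548), above 0. Below 0 was Asph (-0.47 ± 0.18, adjusted p = 0.499). The second Calr probe gave -0.05, away from the first. At day 28 they were Asph (0.38 ± 0.17, adjusted p = 0.646) and Micu2, a regulator of the mitochondrial uniporter (0.20 ± 0.10, adjusted p = 0.652), above 0, and Itpr1, an inositol trisphosphate receptor (-0.33 ± 0.13, adjusted p = 0.637), and Ppp1r1a (-0.67 ± 0.29, adjusted p = 0.643) below 0. Errors are SEs.

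Sln encodes sarcolipin, a relative of phospholamban that inhibits the pump mainly in the atria. Its log2 ratios were 5.95, 0.13, 6.74, 3.45 and 7.56 in the day 1 controls and 0.24, 7.49, 7.43, 7.59 and 7.45 in the day 1 nano-TiO2 mice. At day 28 they ran from 7.18 to 7.63 in the controls and from 0.22 to 7.57 in the nano-TiO2 mice, with medians of 7.33 in both. The values were near 0 on 3 arrays and above 3 on the other 19, and its difference between the controls, 2.63 ± 1.41 (SE), missed the threshold (adjusted p = 0.254). On the 3 arrays with Sln near 0, Pln was 7.39, 7.23 and 7.20, which was the highest value of each of their groups.

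The members did not vary as a single block from mouse to mouse. After the group means were subtracted, 36 relations were computed over the 22 mice, 28 between members and 8 with the cardiomyocyte markers, with permutation tests and Benjamini-Hochberg adjustment over the 36. The permutations shuffled all 22 mice without regard to scan day. Ryr2 and Hrc had r = 0.75 (rho = 0.77, permutation p = 2.0e-05 and 7.0e-05, adjusted 0.00072 and 0.0023), and r was 0.77 without the 2 mice farthest from the median of Ryr2. Ryr2 and Jph2 had r = 0.70 (rho = 0.66, permutation p = 0.00035 and 0.0011, adjusted 0.0030 and 0.0081), and r was 0.67 without the 2 farthest. Jph2 and Pln had r = 0.70 (rho = 0.74, permutation p = 0.00041 and 0.00019, adjusted 0.0030 and 0.0023), and r was 0.63 without the 2 farthest. These relations were positive within each of the 3 scan days, over 6, 8 and 8 mice. The r was 0.43, 0.94 and 0.55 for Ryr2 and Hrc, and 0.49, 0.71 and 0.73 for Jph2 and Pln. For Ryr2 and Jph2 it was 0.07, 0.67 and 0.56, almost no relation on the first day and each under the 0.70 over all mice. Mean log2 ratios of Ryr2 and Jph2 were both lowest on the last scan day, at 0.69 and 1.13, against 1.02 and 1.47 on the first. The part of the scan day in the relation of Ryr2 and Jph2 was not tested.

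Casq2 and Atp2a2, the calcium store and the pump, had r = 0.75 (rho = 0.72, permutation p = 0.00014 and 0.00027, adjusted 0.0017 and 0.0024). This was 0.66 without the 2 farthest mice and 0.64, 0.89 and 0.80 within the scan days. Both genes also varied with the cardiomyocyte markers, Casq2 at r = 0.68 (rho = 0.63, permutation p = 0.00054 and 0.0018, adjusted 0.0032 and 0.011, 0.50 without the 2 farthest) and Atp2a2 at r = 0.63 (rho = 0.59, permutation p = 0.0019 and 0.0047, adjusted 0.0085 and 0.017, 0.47 without the 2 farthest). Within the scan days these were 0.62, 0.68 and 0.61 for Casq2 and 0.83, 0.62 and 0.66 for Atp2a2. Pln varied with the markers at r = 0.55 (rho = 0.61, permutation p = 0.0090 and 0.0024, adjusted 0.029 and 0.013, 0.61 without the 2 farthest) and at 0.60, 0.65 and 0.67 within the scan days. For Srl the relation did not pass (r = 0.27, rho = 0.22, permutation p = 0.23 and 0.33, adjusted 0.34 and 0.45).

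Atp2a2 and Slc8a1, the pump and the exchanger, ran against each other at r = -0.75 (rho = -0.75, permutation p = 0.00010 and 0.00013, adjusted 0.0017 and 0.0023, -0.78 without the 2 farthest). This did not hold within every scan day, where r was 0.50, -0.61 and -0.54. The 6 mice of the first scan day had Slc8a1 log2 ratios between 1.56 and 1.79, a mean of 1.70 against 1.18 and 1.02 on the other days, and Atp2a2 means of 6.56 against 6.93 and 6.96. Slc8a1 also had r = 0.57 with Hrc (permutation test, adjusted p = 0.020, and 0.042 for rho). With Ryr2 it had r = 0.54 (permutation test, adjusted p = 0.032, and 0.065 for rho). On the first scan day these r were -0.32 and -0.52. Slc8a1 is read here by a dim probe, and the part of the scan day in these relations was not tested further.

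**Figure D5:**
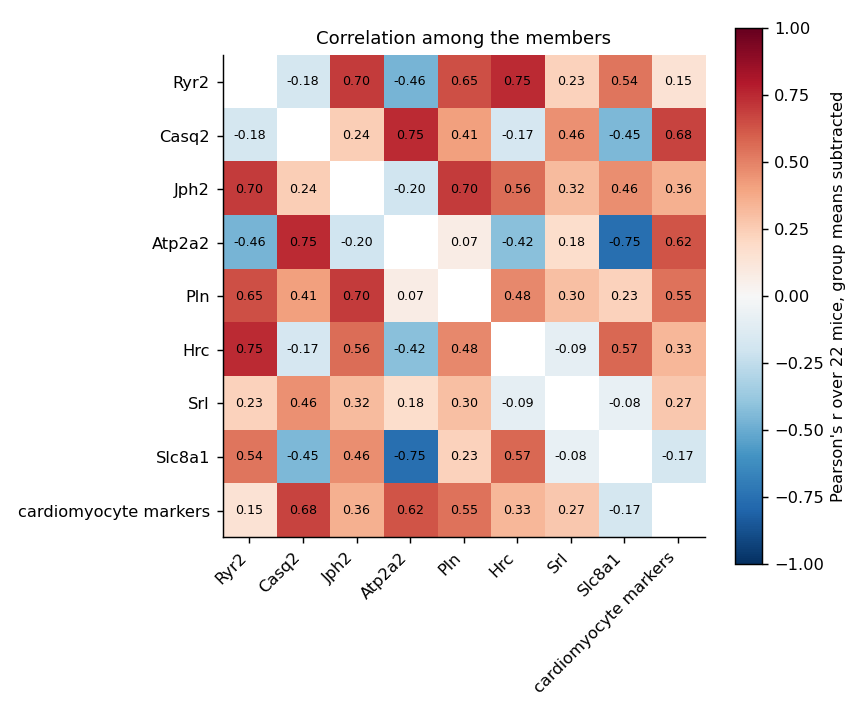
Pearson's r over 22 mice, with group means subtracted, between the 8 genes and the mean of 10 cardiomyocyte markers, coloured from blue at -1 to red at 1. Ryr2, Jph2, Pln and Hrc form positive pairs from 0.48 to 0.75. All of these passed the permutation test of r except the lowest, Pln with Hrc (adjusted p = 0.062, and 0.046 for rho). Jph2 with Hrc had r = 0.17 on the last scan day, and Ryr2 with Jph2 had r = 0.07 on the first. Casq2 and Atp2a2 stand at 0.75, and Atp2a2 with Slc8a1 at -0.75 did not keep its sign on the first scan day.

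The named gene most like each member, out of 10345 candidates and by the same measure over 22 mice, was picked for its likeness, so no test is given. It was Fuom for Ryr2 (r = 0.93), Echs1 for Casq2 (0.86), Tmbim4 for Jph2 (0.92), Ckmt2 for Atp2a2 (0.97), Mapt for Pln (0.85), Rmdn1 for Hrc (0.96), Mrpl37 for Srl (0.80) and Bsdc1 for Slc8a1 (0.92). The mean of the 8 members was most like Des (0.95), Tmbim4 (0.95) and Sgca (0.90). Ckmt2 encodes the mitochondrial creatine kinase of muscle, Des the intermediate filament desmin and Sgca a sarcoglycan of the muscle membrane. Arrays that share a scan day or slide are among the 22 points.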

How the data were processed

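Per the file headers, Agilent Feature Extraction 10.7.3.1 made the deposited files, and the submitters' processing notes name 9.5.3.1. The deposited median intensities of spot and local background were neither subtracted nor normalized. The deposited log10 ratio was made with background subtraction and dye normalization, per the file headers. The authors' series matrix holds log2 values whose making is not given in the sources used here. They correlated at r of 0.992 to 0.998 with loess ratios without background subtraction (column medians -0.0362 to -0.0207).

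Log2 ratios were computed with limma 3.58.1 in R 4.3.3 from median intensities (normexp with offset 50, loess). The normexp parameters left out spots with uneven background, a choice made with results known, and marked spots (0.299%) were dropped. RefSeq accessions matched 23374 of 41174 probes to 16535 genes. Probes well above background on at least 5 of 22 arrays were kept (19275), the brightest per gene. The fit had 4 group means with eBayes, and p was adjusted over 15503 genes (threshold 0.05). The code was tested on simulated data. Replicates are separate mice. The members and lists were chosen with earlier results of these data known. Every member was named, together with every further pathway gene past the threshold or, with none, the 2 with the smallest p in each direction for nano-TiO2, except 1 that is not reported here. Marker lists for endothelium, red blood cells and skeletal muscle had no member past the threshold in the controls. Python 3.11.15 with matplotlib 3.10.9 drew the figures.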

Additional observations from a re-analysis of the deposited data

How the results depend on the processing

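No paired analysis was possible because the replicate numbers were given in accession order and pair no mice. Member differences and counts were computed under 19 other settings (18 for Ryr2, which the strictest filter on dim probes removed) and with each of the 22 arrays left out. The further pathway genes were read under these settings in the control comparison, and the markers, correlations and likeness were not. No member passed in either nano-TiO2 comparison, in the comparison of effects or in nano-TiO2 mice over time under any of them. In the controls the count of members past the threshold was 2, and it was 1 with plain background subtraction, 0 with normexp fitted on all spots, 5 with the scanner's log ratio, 3 with the mean of the probes, the second probe or the scan day as a block, 0 with median centring, 0 with the slide as a block, 0 without the arrays with liver or lung transcripts, and between 2 and 4 with an array left out, 4 without mouse 6 of control day 28. Over all genes the calls in the controls were 1089 higher and 534 lower, against 73 and 6 with normexp fitted on all spots, 1827 and 2038 with the scanner's log ratio, 1033 and 716 with the series matrix, 1634 and 926 with array weights, 87 and 0 with median centring and 0 with the slide block. Median centring moved the median of all genes by 0.13 in the controls. The cause of these changes was not tested. The dim Ryr2, Jph2 and Slc8a1 probes limit what can be seen of those genes. Leaving out the arrays lacking Sln, or those with liver or lung transcripts, and reading the pathway genes under each setting, was chosen after seeing the data.

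The median member difference under normexp fitted on all spots was 0.20 for nano-TiO2 at day 1, -0.0565 at day 28, -0.22 for the difference of effects and -0.49 for nano-TiO2 mice over time, and under median centring it was 0.12, -0.0438, -0.21 and -0.25, with -0.0559 in the controls. The remaining values are of members that missed the threshold in the main setting and changed sign. For nano-TiO2 at day 1, median centring gave Atp2a2 0.23, Casq2 0.22, Srl 0.14, Pln 0.0857 and Slc8a1 0.0262, and normexp on all spots gave Pln 0.29, Slc8a1 0.21, Casq2 0.20, Srl 0.13 and Jph2 0.0764. Slc8a1 was 0.60 with the scanner's ratio, 0.21 without the arrays lacking Sln, 0.0154 without background subtraction, 0.0155 by its second probe and 0.0080 in the series matrix. For nano-TiO2 at day 28, normexp on all spots gave Casq2 -0.0534, Hrc -0.0596 and Srl -0.0314, median centring gave Hrc -0.0721 and Srl -0.0155, and Hrc was -0.0482 without the arrays with liver or lung transcripts. Jph2 was 0.15 with the scanner's ratio, 0.0848 in Cy5 alone and 0.0075 with scaling between arrays, and Ryr2 was 0.0070 in Cy5 alone. For the difference of effects, normexp on all spots gave Casq2 -0.25, Pln -0.18, Srl -0.16 and Jph2 -0.15, and median centring gave Atp2a2 -0.23, Casq2 -0.22 and Srl -0.15. Hrc was 0.0752 with scaling, 0.0405 in Cy5 alone, 0.0317 with array weights and 0.00331 with the scanner's ratio, and Slc8a1 was 0.12 in Cy5 alone. In the controls, Ryr2 was -0.0801 in Cy5 alone, -0.0960 with array weights and -3.55e-05 with median centring, and Slc8a1 was -0.0609 in Cy5 alone. In nano-TiO2 mice over time, Cy5 alone gave Atp2a2 0.37, Srl 0.0330, Casq2 0.0236 and Pln 0.0173, scaling gave Atp2a2 0.0619, Pln 0.0317 and Casq2 0.0120, and the slide block gave Atp2a2 0.11, Casq2 0.0953 and Slc8a1 -0.16. Pln was 0.0470 in the series matrix, 0.0158 without background subtraction and 0.0150 with plain subtraction, Jph2 was 0.14 with plain subtraction and 0.00326 with the scanner's ratio, and Atp2a2 was 0.0158 by its second probe. Slc8a1 was -0.24 with normexp on all spots, -0.21 with the scanner's ratio, -0.0389 with the scan day as a block, -0.0117 without the arrays lacking Sln and -0.000825 with the mean of its probes.

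With an array left out, sign changes occurred for 9 values. At day 1, Casq2 ran from -0.0701 to 0.0109 and Slc8a1 from -0.18 to 0.13, and at day 28 Jph2 ran from -0.11 to 0.0369 and Ryr2 from -0.16 to 0.0058. The Hrc difference of effects ran from -0.22 to 0.0360 and Ryr2 in the controls from -0.0998 to 0.14. In nano-TiO2 mice over time, Atp2a2 ran from -0.13 to 0.0040, Jph2 from -0.14 to 0.0199 and Slc8a1 from -0.0640 to 0.19.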

Other observations

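The genes of mitochondrial calcium transport and the surface pumps held no gene past the threshold in the control comparison. The 3 genes of mitochondrial calcium transport tested, Micu2, Smdt1 and Slc8b1, all had differences below 0, with a median of -0.10. So had 3 of the 4 surface pumps, with a median of -0.23. Among the receptors of inositol trisphosphate and store-operated entry, 3 of 5 were above 0, with a median of 0.24, and Itpr3 was the one that passed. These medians stand beside -0.0024 for all genes tested.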
